A study of Mus musculus with 6 samples.

Results

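Serpins are a family of protease inhibitors, and 62 mouse serpin genes were compared in whole dorsal skin treated with clodronate liposomes or with control liposomes. The genes were the rows of the deposited count table whose identifier maps to a protein-coding symbol starting with Serpin, with Serpinh1 left out, which gave 62 of the 55487 genes in the table. Of these, 60 carried such a symbol and a protein-coding type in GENCODE M21. Serpinb10 was added because RefSeq lists it as protein coding while GENCODE calls it a polymorphic pseudogene, and Serpinb9h because it is the RefSeq symbol of a gene that GENCODE names Gm11397.

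Polyadenylated RNA was taken at day 2 from mouse skin exposed to diphencyprone (DPCP), which is a hapten used to raise contact allergy. In the DPCP+Codrosome group, 3 libraries came from skin treated with DPCP and clodrosome (spelled Codrosome in the sample labels), liposomes that carry clodronate into phagocytes and kill them. In the DPCP+Encapsome group, 3 libraries came from skin treated with DPCP and encapsome, the matching liposomes without clodronate. All 6 libraries therefore received DPCP and liposomes, and the labels used here give no strain, age or sex, do not say how the liposomes were given, and do not say whether each library was a separate animal, so the spread behind each p-value may be technical. The letters A, B and C give the table order of the libraries in each group and pair nothing across groups.

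A serpin inhibits its target by offering a flexible reactive loop as bait: when the protease cuts the loop, the serpin snaps into a new fold and traps the enzyme. The loop sequence sets which protease is caught. Clade A serpins are secreted and many are acute phase proteins of the liver, clade B serpins lack a classical secretion signal and mostly guard the inside of cells, and the remaining clades include the inhibitors of plasminogen activators, thrombin and complement C1. Keratinocytes are rich in clade B serpins, which meet the kallikreins and cathepsins of the cornifying epidermis. In mice several human serpins correspond to clusters of duplicated genes, on chromosome 12 for clade A and on chromosomes 1 and 13 for clade B.

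The depth was 116965654 counts in clodrosome library A and between 26649396 and 35566351 counts in the other 5 libraries. The skin carried its markers, with 6 basal keratinocyte genes (among them Krt5 and Krt14) summing to between 23377 and 24222 CPM with clodrosome and between 15938 and 19900 CPM with encapsome. CPM are counts scaled by library size with TMM factors. All 6 macrophage markers checked were lower with clodrosome, summing to between 490 and 1177 CPM against between 2654 and 3180 CPM with encapsome. The 6 fibroblast markers were lower as well, at between 2105 and 4108 CPM with clodrosome and between 7883 and 9329 CPM with encapsome, and none of the marker genes of these 3 lists was at 0. In whole skin, fewer cells of a type and less RNA per cell cannot be told apart. The share of counts in ribosomal RNA genes was between 0.334% and 0.481% in clodrosome A and C and encapsome A, and between 0.788% and 0.845% in the other 3 libraries, and the labels name no batch.

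Serpin genes moved in both directions in clodrosome skin. Among the secreted Serpina3 genes of chromosome 12, Serpina3f rose 3.24-fold while Serpina3b, Serpina3j and the abundant Serpina3n fell. Among the intracellular clade B serpins, Serpinb2, Serpinb6b and Serpinb9 rose, and Serpinb7, Serpinb3a, Serpinb6a and Serpinb6e fell. The calls of Serpina3n, Serpinb2, Serpinb9, Serpinb3a and Serpinb6a were lost in some of the fits that left out a library. Serpina3b and Serpinb6e passed the filter on low counts through encapsome libraries alone. No tested gene of the other clades passed the test, including Serping1, Serpine2 and Serpinf1. In all, 4 members were called higher and 9 lower with clodrosome at an edgeR adjusted p under 0.05, against a background of 9.41% of all 17988 tested genes called higher and 13% called lower (22.4% in either direction). Without encapsome A the counts were 2 higher and 5 lower, and without encapsome B 5 were lower.

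The 62 members divide into 38 that passed the filter on low counts and 24 that did not. Of the 38, 33 lay above the filter level (0.314 CPM) in every library of both groups, while Serpina3b, Serpinb6e and Serpina10 passed through encapsome libraries alone, so for these 3 a difference follows from the way they entered the test. Of the 13 called members, 10 lay above the level in every library. Serpina11 and Serpind1 reached it in too few libraries of either group. The groups did not overlap for 17 of the 38 members (44.7%), against 40.2% of all tested genes. The median log2 fold change of the 38 was -0.05, beside 0.01 over all tested genes.

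**Figure D1:**
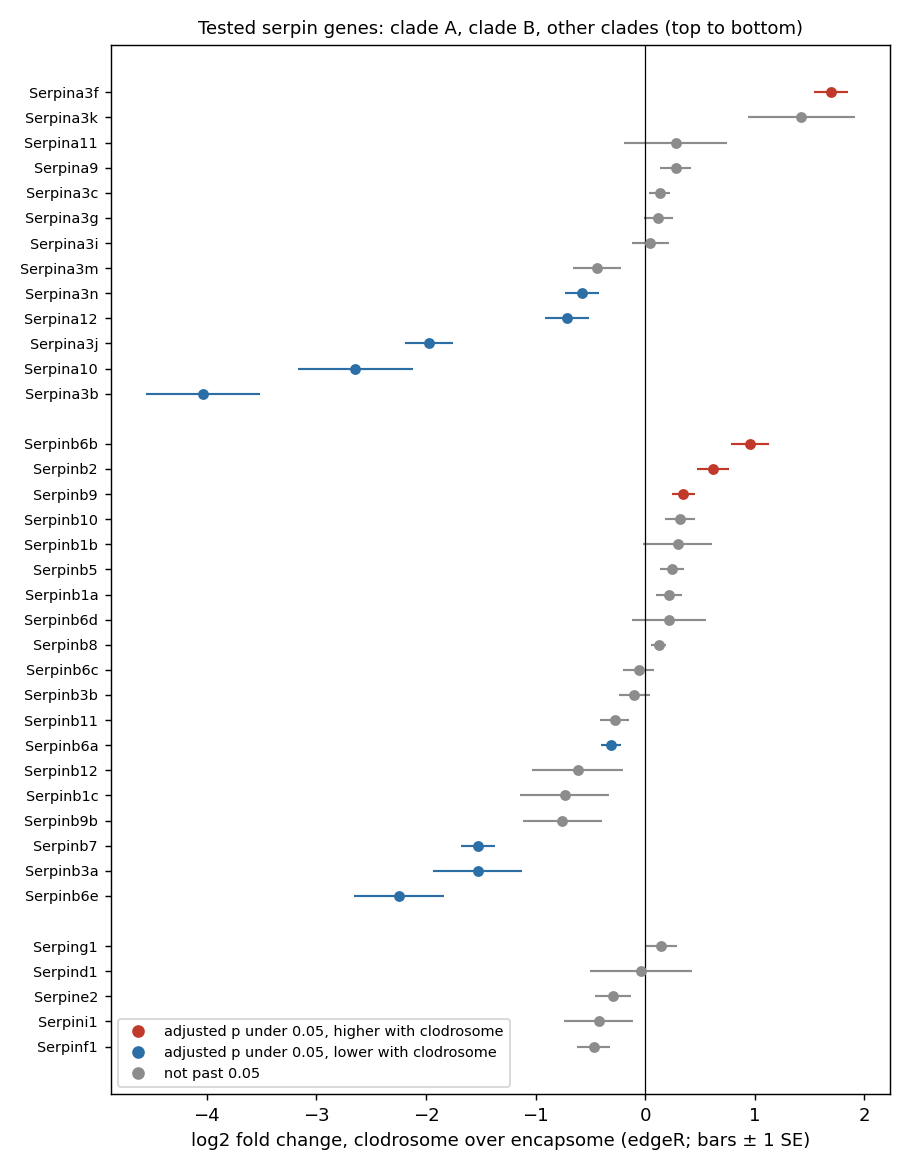
Log2 fold change of 37 of the 38 tested serpin genes, clodrosome over encapsome, with bars of ± 1 SE from edgeR; clade A is at the top, clade B in the middle and the other clades at the bottom, and red and blue points are genes past the threshold. The calls run from Serpina3b at -4.03, which passed the filter through encapsome libraries alone, to Serpina3f at 1.70. The bottom group holds grey points only.

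The order of levels per length put few serpins high. In RPKM, here CPM divided by exonic length in kilobases, Serpinb2 averaged 302 with clodrosome and 197 with encapsome, Serpinb5 225 and 189, Serpina3n 212 and 315, and Serping1 199 and 180. Serpinb6a followed at 89.6 with clodrosome and 111 with encapsome, then Serpinb1a at 53.5 and 46.0. By this measure the order of the first 4 differed between the groups, with Serpina3n first in encapsome skin and Serpinb2 first in clodrosome skin. The ranking depends on the length used. For Serpinb6a the exonic length is 5409 bases, against 1504 bases in its transcript with the longest coding sequence. Reads in the 29.3% of its exonic bases shared with other genes were left out, so its RPKM may be too low.

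The Serpina3 genes are a mouse expansion of the gene for human alpha-1-antichymotrypsin, an acute phase inhibitor of chymotrypsin-like proteases. The 10 members of this set lie on chromosome 12 (GRCm38), and 9 of them were tested. Their coding sequences are alike, with 91.4% of aligned bases shared by Serpina3f and Serpina3i and 92.0% by Serpina3k and Serpina3m, but they are less alike around the reactive loop. The sequences below are shown because the loop sets the target of a serpin and its bases help to tell the RNAs of the copies apart. Each is the stretch of coding bases before the conserved serpin signature near the end of the protein, 5′ to 3′ from GENCODE M21 transcripts, placed on Serpina3n by alignment. Capitals mark bases that differ from Serpina3n or have no partner in it.
Serpina3n: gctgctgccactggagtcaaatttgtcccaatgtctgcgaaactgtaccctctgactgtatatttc
Serpina3f: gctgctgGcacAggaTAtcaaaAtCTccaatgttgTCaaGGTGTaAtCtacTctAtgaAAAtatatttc
Serpina3i: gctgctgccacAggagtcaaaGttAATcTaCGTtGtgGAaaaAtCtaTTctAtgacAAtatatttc
Serpina3b: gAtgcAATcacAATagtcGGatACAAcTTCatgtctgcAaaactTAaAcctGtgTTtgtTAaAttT
Serpina3j: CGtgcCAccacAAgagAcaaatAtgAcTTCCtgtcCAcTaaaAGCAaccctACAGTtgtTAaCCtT

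These windows span chr12:104413460-104413525 for Serpina3n, chr12:104220257-104220325 for Serpina3f, chr12:104268492-104268557 for Serpina3i, chr12:104138677-104138742 for Serpina3b and chr12:104319698-104319763 for Serpina3j, all on the plus strand. Serpina3f shared 69.6% of its window with Serpina3n against 86.3% of the rest of its coding sequence. In the window, bases without a partner count as differences, whereas the share of the rest covers aligned bases only. For Serpina3b the shares were 59.1% and 80.1%, and for Serpina3j 54.5% and 83.3%. Serpina3b and Serpina3j are each other's nearest copies among the members, at 82.3%. Of the 150-base windows in the transcripts of Serpina3b, Serpina3f, Serpina3i, Serpina3j and Serpina3n, 0% occurred in a transcript of another gene, so an error-free read of that length tells these copies apart. At 75 bases the shares were 5.61% for Serpina3f, 6.87% for Serpina3i and 1.46% for Serpina3n.

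Serpina3f (chromosome 12, 104214544 to 104221129) had 28.6, 26.3 and 29.7 CPM in clodrosome libraries A, B and C, against 6.64, 10.8 and 8.63 CPM in the encapsome libraries. Every clodrosome library was more than double any encapsome library. The log2 fold change was 1.70 ± 0.159 (SE), edgeR adjusted p = 1.81e-04, and the gene was called under each of the 12 alternatives. Serpina3i, its nearest copy, had 8.03, 10.1 and 8.42 CPM with clodrosome and 6.84, 8.57 and 10.2 CPM with encapsome, and the groups overlapped (log2 fold change 0.048 ± 0.166 (SE), edgeR adjusted p = 0.869). The log2 fold change of Serpina3i ran from -0.091 to 0.195 over the alternatives, on both sides of 0. Serpina3g, which in mice inhibits lysosomal cathepsins and is also close to Serpina3f, had 7.67, 7.10 and 8.45 CPM with clodrosome and 6.35, 7.76 and 7.26 CPM with encapsome (log2 fold change 0.12 ± 0.134 (SE), edgeR adjusted p = 0.571). For Serpina3g 55.6% of exonic bases are also annotated to another gene, where reads were left out, so its count covers only part of the gene. Whether the copies differ from each other in their response was not tested.

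The starts of Serpina3f and Serpina3i are also alike. The 250 bases before each start (RefSeq, GRCm38.p6) are shown because the nearest copies shared 82.2% of 219 aligned promoter bases while Serpina3f passed the test and Serpina3i did not. Capitals mark the motif TTCNNNGAA, the form bound by STAT factors.
Serpina3f: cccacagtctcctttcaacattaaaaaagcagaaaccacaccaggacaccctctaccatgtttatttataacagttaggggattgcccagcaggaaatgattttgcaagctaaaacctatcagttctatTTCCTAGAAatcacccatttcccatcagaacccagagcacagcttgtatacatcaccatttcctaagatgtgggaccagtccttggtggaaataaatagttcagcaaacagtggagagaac
Serpina3i: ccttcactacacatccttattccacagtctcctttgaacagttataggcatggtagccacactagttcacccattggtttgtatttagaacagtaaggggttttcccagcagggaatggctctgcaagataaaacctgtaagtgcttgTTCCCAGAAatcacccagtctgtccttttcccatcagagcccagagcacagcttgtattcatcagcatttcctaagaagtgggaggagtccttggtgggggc

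The Serpina3f stretch spans chr12:104214294-104214543 and the Serpina3i stretch chr12:104262872-104263121, both on the plus strand. Each held 1 match of TTCNNNGAA, as did Serpina3g. Promoter entries existed for 53 of the 62 members (62 entries), of which 10 (16.1%) held this motif on either strand, against 7.02% of all 32851 promoters. The AP-1 motif TGANTCA was in 12 member entries (19.4%) against 6.75% of all promoters. They belong to Serpinb2, Serpinb5, Serpinb7, Serpinb8, Serpinb10, Serpinb11 and Serpinb12, and to the untested copies Serpina1a, Serpina1b, Serpina1c and Serpina1d. Overlapping entries of the same gene were each counted, as for Serpina3f with TTCNNNGAA and Serpinb2 with TGANTCA. Entries of duplicated genes were each counted too. The member entries are therefore not independent. The ETS motif GAGGAAGT was in 0 member entries against 2.44% of all promoters, and 2 forms of the NF-kappaB motif were in 0 member entries against 0.140% and 0.0852%. A match describes letters only.

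Serpina3b (chromosome 12, 104127996 to 104139545) had 0.150, 0.197 and 0.552 CPM with clodrosome and 2.26, 5.47 and 5.44 CPM with encapsome. The clodrosome values rest on 18, 6 and 20 counts, and library B lay at the level that a count of 0 allows, so the size of the log2 fold change, -4.03 ± 0.518 (SE), is uncertain (edgeR adjusted p = 7.81e-04). Serpina3j (chromosome 12, 104314553 to 104320725) was better counted, at 4.14, 6.74 and 4.94 CPM with clodrosome and 15.2, 24.0 and 21.8 CPM with encapsome. Its highest clodrosome library stayed under its lowest encapsome library, and it fell by 1.97 ± 0.216 (SE) on the log2 scale (edgeR adjusted p = 3.45e-04). Without clodrosome C the log2 fold change of Serpina3b was -4.72. Both genes were called under each of the 12 alternatives, but Serpina3b had entered the test through encapsome libraries alone.

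Serpina3n (chromosome 12, 104406729 to 104414329), an acute phase serpin that inhibits granzyme B and leukocyte elastase in mice, was the most abundant clade A gene. It had 503, 319 and 489 CPM with clodrosome and 687, 605 and 661 CPM with encapsome. The groups did not overlap, with clodrosome B lowest of all, and the log2 fold change was -0.57 ± 0.157 (SE), edgeR adjusted p = 0.0291. The call was lost without encapsome A (edgeR adjusted p = 0.0835), encapsome B (0.0611) or encapsome C (0.0844), and over the alternatives adjusted p ran from 2.32e-07 to 0.0844. Clodrosome B was also the lowest library in the macrophage and fibroblast marker sums, and the part of those cells in this result was not tested.

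Of the other Serpina3 genes, Serpina3c stayed within the spread of the libraries, at 23.1, 22.5 and 25.8 CPM with clodrosome and 19.97, 21.4 and 23.8 CPM with encapsome (edgeR adjusted p = 0.386). Serpina3k, the kallikrein-binding protein, had 0.995, 1.15 and 2.32 CPM with clodrosome and 0.323, 0.938 and 0.342 CPM with encapsome, groups that did not overlap, but missed the threshold (edgeR adjusted p = 0.0655, log2 fold change 1.43 ± 0.489 (SE)). It passed by DESeq2, without the low-count filter and without encapsome B, over adjusted p from 6.58e-04 to 0.222. Serpina3m had 6.24, 3.48 and 6.85 CPM with clodrosome and 7.68, 7.26 and 7.72 CPM with encapsome. Its groups did not overlap either, and it was not called (edgeR adjusted p = 0.191). Serpina3k and Serpina3m share 92.0% of their coding bases, but 0.262% and 0.331% of their 150-base windows occur in other genes. Serpina3a was not tested, with 2 counts in all libraries together.

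**Figure D2:**
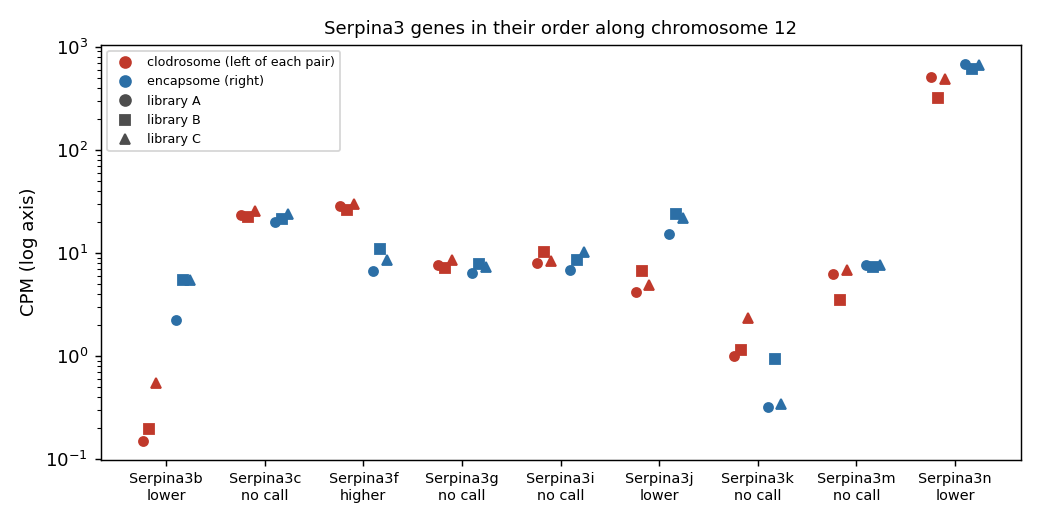
CPM on a log axis of the 9 tested Serpina3 genes in their order along chromosome 12, clodrosome libraries (red) left of encapsome libraries (blue), with a marker shape for each library. Serpina3f is called higher, and Serpina3b, Serpina3j and Serpina3n are called lower, with no overlap between groups. The groups do not overlap for the uncalled Serpina3k and Serpina3m either.

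Elsewhere in clade A levels were low. Serpina12, vaspin, an adipokine that inhibits the epidermal kallikrein KLK7 (chromosome 12, 104028769 to 104044443), had 1.70, 2.14 and 2.49 CPM with clodrosome and 3.32, 3.41 and 3.50 CPM with encapsome. Its groups did not overlap, and it fell by 0.71 ± 0.198 (SE) on the log2 scale (edgeR adjusted p = 0.0305). That call was lost without clodrosome A (edgeR adjusted p = 0.101) and without each encapsome library (0.0634 to 0.0841), over a range from 0.0231 to 0.101. Serpina10, the protein Z-dependent inhibitor of activated coagulation factor X (chromosome 12, 103614786 to 103631444), had 0.0502, 0.131 and 0.110 CPM with clodrosome and 0.710, 0.438 and 0.418 CPM with encapsome, which rest on 6, 4 and 4 counts with clodrosome and 22, 14 and 11 counts with encapsome. It was called lower (-2.64 ± 0.524 (SE), edgeR adjusted p = 0.00687), with a size that so few counts leave uncertain. Serpina10 had entered the test through encapsome libraries alone, so a lower value with clodrosome follows from that entry. Every clodrosome value lay at or under the level that a count of 0 allows (0.0502, 0.197 and 0.166 CPM in A, B and C). Serpina9, a serpin of germinal centre B cells, had 11.04, 8.58 and 10.6 CPM with clodrosome and 9.42, 7.82 and 7.76 CPM with encapsome and was not called (edgeR adjusted p = 0.192).

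The Serpina1 genes, which encode alpha-1-antitrypsin, the main elastase inhibitor of plasma, were all below the filter. Their 6 copies together had 100 counts over the 6 libraries, and Serpina1c and Serpina1f had 0. Serpina1a to Serpina1e are nearly identical, sharing between 96.3% and 98.5% of coding bases, whereas Serpina1f shares at most 61.9% with them. The share of 150-base windows that occur in other genes was 59.7% for Serpina1c, 40.7% for Serpina1a, 23.3% for Serpina1d, 16.4% for Serpina1b, 7.57% for Serpina1e and 0% for Serpina1f, so reads of most windows could be counted for all but Serpina1c. The hepatocyte markers summed to between 1.11 and 1.91 CPM with clodrosome and between 1.83 and 2.13 CPM with encapsome, with Fgb at 0. Serpina5, Serpina7 and Serpini2 were at 0 in all libraries too, and Serpina6, the corticosteroid-binding globulin, had 4 counts in all. Serpina16 was not tested, and Serpina11 was not called (edgeR adjusted p = 0.716).

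**Figure D3:**
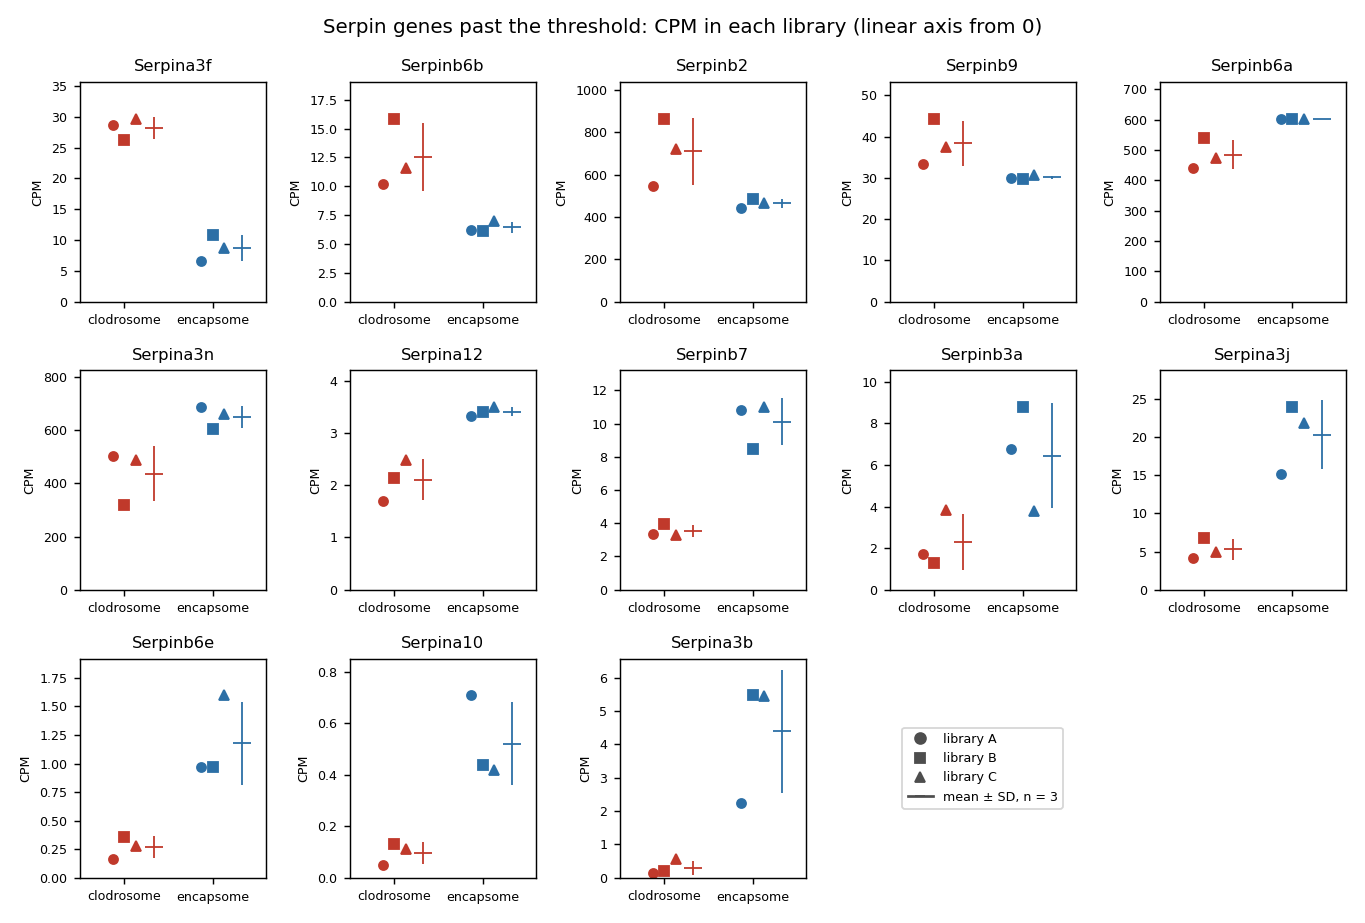
CPM in each library for the 13 serpin genes past the threshold, on linear axes from 0, with clodrosome left of encapsome and the mean ± SD (n = 3) beside the points. Serpinb3a is the panel in which the groups overlap, with clodrosome C at 3.81 and encapsome C at 3.80 CPM.

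The clade B genes of chromosome 1 include most of the known epidermal serpins. Serpinb2 (chromosome 1, 107511423 to 107535478), plasminogen activator inhibitor type 2, which is made by keratinocytes and macrophages, had 547, 863 and 722 CPM with clodrosome and 441, 484 and 466 CPM with encapsome. Clodrosome A was nearest to the encapsome libraries, and the groups did not overlap. The log2 fold change was 0.62 ± 0.146 (SE), edgeR adjusted p = 0.0157, and this 1.53-fold difference lost its call without encapsome A (edgeR adjusted p = 0.0570) or encapsome C (0.0559), over a range from 4.43e-09 to 0.0570. The macrophage marker sum was lower with clodrosome while Serpinb2 was higher. Of the keratinocyte markers, 4 of 6 basal and 4 of 5 activated genes were higher, and 4 of 7 suprabasal genes were lower. The activated markers summed to between 20090 and 21976 CPM with clodrosome and between 14998 and 17887 CPM with encapsome. The part of any of these cells in the Serpinb2 result was not tested.

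Serpinb10 neighbours Serpinb2, and 12.4% of the exonic bases of Serpinb2 and 8.34% of those of Serpinb10 are shared between them. It had 25.2, 33.1 and 28.9 CPM with clodrosome and 20.97, 20.9 and 27.9 CPM with encapsome, and the groups overlapped (edgeR adjusted p = 0.131). It passed without the low-count filter, without encapsome C and with the ribosomal RNA side as a covariate, over adjusted p from 0.0227 to 0.348. Serpinb5, maspin, an epithelial serpin that does not inhibit proteases, had 523, 716 and 615 CPM with clodrosome and 527, 517 and 519 CPM with encapsome. Clodrosome A lay among the encapsome libraries, the log2 fold change was 0.25 ± 0.111 (SE) and the gene was not called (edgeR adjusted p = 0.147), although it was without clodrosome A (edgeR adjusted p = 0.0323, over a range from 0.0323 to 0.292). Serpinb8, an inhibitor of furin in humans, had 82.8, 89.9 and 88.2 CPM with clodrosome and 81.2, 80.3 and 78.0 CPM with encapsome, groups that did not overlap but differed little (0.12 ± 0.0671 (SE) on the log2 scale, edgeR adjusted p = 0.226).

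Serpinb7 (chromosome 1, 107399655 to 107452689), an epidermal serpin whose human counterpart is mutated in a palmoplantar keratosis, fell in clodrosome skin. It had 3.36, 3.94 and 3.29 CPM with clodrosome and 10.8, 8.48 and 10.99 CPM with encapsome, so that each encapsome library was more than double each clodrosome library. The log2 fold change was -1.52 ± 0.154 (SE), edgeR adjusted p = 2.48e-04, called under each of the 12 alternatives. The suprabasal keratinocyte markers, of which 4 of 7 were lower, summed to between 1690 and 2066 CPM with clodrosome and between 2060 and 2479 CPM with encapsome. Of the basal and activated keratinocyte markers, 4 of 6 and 4 of 5 were higher. The part of any of these cells in the Serpinb7 result was not tested.

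The Serpinb3 genes are the mouse counterparts of the human squamous cell carcinoma antigens, which include an inhibitor of papain-like cathepsins. Serpinb3a (chromosome 1, 107045587 to 107052303) had 1.73, 1.28 and 3.81 CPM with clodrosome and 6.77, 8.79 and 3.80 CPM with encapsome. Clodrosome C and encapsome C were nearly equal, so the groups overlapped, and the call (-1.53 ± 0.405 (SE), edgeR adjusted p = 0.0253) was lost without clodrosome A, clodrosome B, encapsome A or encapsome B (edgeR adjusted p from 0.0520 to 0.106, against 5.10e-12 to 0.106 over all alternatives). Serpinb3b, whose coding sequence is 93.1% identical, had 29.9, 27.7 and 37.4 CPM with clodrosome and 34.4, 38.8 and 28.3 CPM with encapsome and was not called (edgeR adjusted p = 0.666). Serpinb3c and Serpinb3d were not tested, with at most 11 counts in a library, nor was Serpinb13. Serpinb11 had 11.8, 14.3 and 14.5 CPM with clodrosome and 18.9, 14.7 and 15.4 CPM with encapsome (edgeR adjusted p = 0.162), and Serpinb12 1.66, 0.854 and 2.13 CPM with clodrosome and 3.52, 2.53 and 1.10 CPM with encapsome (edgeR adjusted p = 0.334).

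On chromosome 13 the Serpinb6 genes went both ways. The human counterpart, SERPINB6, inhibits cathepsin G. Serpinb6b (chromosome 13, 32965209 to 32979067) had 10.2, 15.8 and 11.6 CPM with clodrosome and 6.19, 6.13 and 6.998 CPM with encapsome. Its lowest clodrosome library was above every encapsome library, the log2 fold change was 0.95 ± 0.172 (SE) (edgeR adjusted p = 0.00438), and it was called under each of the 12 alternatives. Serpinb6a (chromosome 13, 33917918 to 34002794), the most abundant of the set, had 442, 538 and 474 CPM with clodrosome and 601, 602 and 602 CPM with encapsome. The encapsome libraries were nearly equal and all clodrosome libraries were lower (log2 fold change -0.31 ± 0.0896 (SE), edgeR adjusted p = 0.0349). The call of Serpinb6a was lost without clodrosome A, clodrosome C or any encapsome library (edgeR adjusted p from 0.0860 to 0.106, against 0.00445 to 0.106 over all alternatives), and 29.3% of its exonic bases overlap other genes, among them Ripk1 and Nqo2.

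Serpinb6c, 87.9% identical to Serpinb6b, had 40.7, 55.7 and 56.9 CPM with clodrosome and 59.5, 45.7 and 54.0 CPM with encapsome and was not called (edgeR adjusted p = 0.803). Its direction turned when clodrosome A or encapsome A was left out. Serpinb6e (chromosome 13, 33832345 to 33843408) had 0.167, 0.361 and 0.276 CPM with clodrosome and 0.968, 0.970 and 1.597 CPM with encapsome, and the groups did not overlap. It was called lower (-2.25 ± 0.407 (SE), edgeR adjusted p = 0.00447) on 20, 11 and 10 counts with clodrosome and 30, 31 and 42 counts with encapsome. Serpinb6e had entered the test through encapsome libraries alone, so a lower value with clodrosome follows from that entry. Serpinb6d was not called (edgeR adjusted p = 0.696). Clodrosome A has the largest total of the libraries, so for Serpinb6e its 20 counts correspond to only 0.167 CPM.

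Serpinb9 (chromosome 13, 33003250 to 33017957), which protects cells from granzyme B, had 33.5, 44.3 and 37.4 CPM with clodrosome and 29.9, 29.8 and 30.6 CPM with encapsome. All clodrosome libraries were higher, with clodrosome A nearest to the encapsome libraries. The log2 fold change was 0.35 ± 0.104 (SE), edgeR adjusted p = 0.0412, and the call held in 1 of the 6 fits that left out a library, the others giving edgeR adjusted p from 0.0573 to 0.121, against 0.00559 to 0.121 over all alternatives. Gzmb itself had 7.34, 10.3 and 10.5 CPM with clodrosome and 7.45, 9.35 and 12.02 CPM with encapsome (edgeR adjusted p = 0.909), and the T and NK cell markers, none called, summed to between 12.7 and 21.8 CPM with clodrosome and between 14.0 and 18.4 CPM with encapsome. Of the 8 Serpinb9 genes, 6 were not tested (Serpinb9c, Serpinb9d, Serpinb9e, Serpinb9f, Serpinb9g and Serpinb9h), and Serpinb9b was not called (edgeR adjusted p = 0.165). Serpinb9g and Serpinb9h share 99.1% of coding bases, and 30.9% and 58.8% of their 150-base windows occur in other genes.

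Serpinb1a, the monocyte and neutrophil elastase inhibitor, had 114, 142 and 113 CPM with clodrosome and 89.3, 114 and 114 CPM with encapsome. The groups overlapped and the gene was not called (0.22 ± 0.122 (SE), edgeR adjusted p = 0.241), except with the ribosomal RNA side as a covariate (edgeR adjusted p = 0.00493, over a range from 0.00493 to 0.580). The neutrophil markers, with 1 of 6 called higher, summed to between 1405 and 1973 CPM with clodrosome and between 1008 and 1621 CPM with encapsome. Serpinb1b and Serpinb1c averaged 1.73 and 0.65 CPM with clodrosome and 1.38 and 1.10 CPM with encapsome, and were not called.

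Outside clades A and B the abundant serpins did not pass the test. Serping1 (chromosome 2, 84765387 to 84775444), the C1 inhibitor that controls complement C1 and plasma kallikrein, had 563, 373 and 452 CPM with clodrosome and 454, 383 and 417 CPM with encapsome. Libraries of both groups were interleaved (0.15 ± 0.141 (SE), edgeR adjusted p = 0.508), and the direction turned without clodrosome A. Serpinf1 (chromosome 11, 75409769 to 75422701), pigment epithelium-derived factor, an inhibitor of vessel growth made by fibroblasts that does not inhibit proteases, had 86.3, 56.9 and 60.3 CPM with clodrosome and 96.6, 101.6 and 84.5 CPM with encapsome. Clodrosome A overlapped the encapsome libraries, and the gene, at -0.47 ± 0.149 (SE) on the log2 scale, missed the threshold (edgeR adjusted p = 0.0503). It passed by DESeq2 (adjusted p = 0.00913), without clodrosome A, without the low-count filter and with the ribosomal RNA side as a covariate, over a range from 2.75e-05 to 0.171. All 6 fibroblast markers were lower, and their part in the Serpinf1 values was not tested.

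Serpine2 (chromosome 1, 79794197 to 79861180), protease nexin 1, a thrombin inhibitor of the matrix, had 32.1, 23.9 and 36.8 CPM with clodrosome and 31.0, 42.1 and 40.7 CPM with encapsome (-0.29 ± 0.162 (SE), edgeR adjusted p = 0.237). The groups overlapped. Neuroserpin, Serpini1, and heparin cofactor II, Serpind1, averaged at most 1.41 CPM in either group and were not called. Antithrombin, Serpinc1, alpha-2-antiplasmin, Serpinf2, and Serpine3 fell below the filter.

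**Figure D4:**
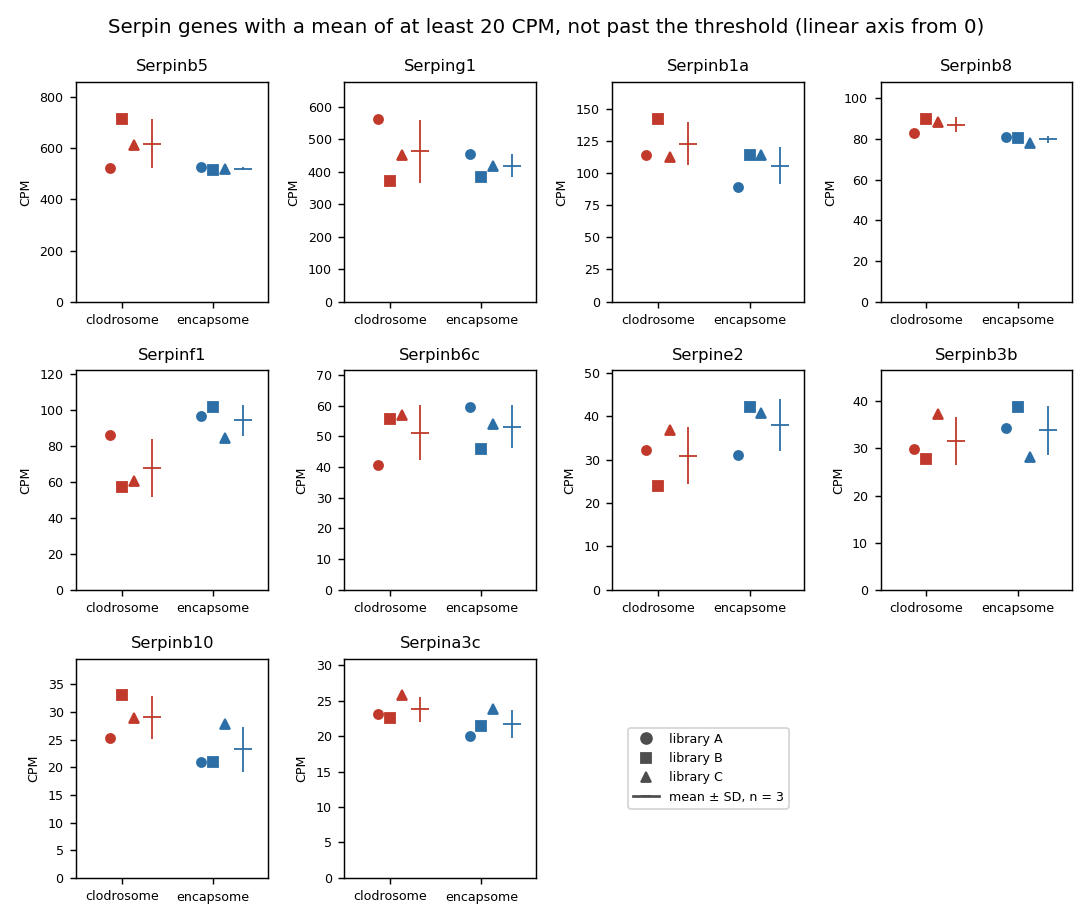
CPM in each library for 10 of the 11 uncalled serpin genes averaging 20 CPM or more, on linear axes from 0, with clodrosome left of encapsome and the mean ± SD (n = 3) beside the points. Libraries of both groups overlap in every panel except Serpinb8.

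Genes of the systems in which serpins act were counted in the same fit. Over all tested genes 9.41% were called higher and 13% lower (22.4% in either direction). None of the lists below was tested against these shares. Plasminogen activators control fibrin removal and cell migration. Of 10 tested genes of plasminogen activation 0 were higher and 2 lower, Lrp1 (-1.32 ± 0.124 (SE), edgeR adjusted p = 1.81e-04), the receptor that clears serpin and protease complexes, and Mrc2, a collagen receptor that associates with the urokinase receptor (-1.07 ± 0.122 (SE), edgeR adjusted p = 4.28e-04). The median log2 fold change of the list was -0.30, beside 0.01 over all tested genes. The targets of Serpinb2 were not called, with Plau at 74.9, 50.9 and 69.2 CPM with clodrosome and 94.8, 77.4 and 85.8 CPM with encapsome (edgeR adjusted p = 0.0649) and Plat at 34.3, 22.9 and 23.6 CPM with clodrosome and 38.2, 44.2 and 32.7 CPM with encapsome (edgeR adjusted p = 0.0566). The count of lower genes was 4 by DESeq2, without the low-count filter and without clodrosome A.

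Of 14 tested coagulation genes, 4 were higher and 5 lower, with a median log2 fold change of -0.10. F7, which starts the extrinsic pathway, had 2.67, 2.46 and 3.12 CPM with clodrosome and 28.1, 16.7 and 25.1 CPM with encapsome, far apart (log2 fold change -3.08 ± 0.203 (SE), edgeR adjusted p = 6.69e-05). Pros1, protein S, changed by -1.01 ± 0.0850 (SE) (edgeR adjusted p = 1.21e-04), F13a1, the fibrin cross-linker that macrophages make, by -1.67 ± 0.281 (SE) (edgeR adjusted p = 0.00309), and F3, tissue factor, by 0.49 ± 0.0779 (SE) (edgeR adjusted p = 0.00228). In the list of C1 proteases and the contact system, 1 of 8 tested genes was higher and 4 were lower, with a median of -0.24. The complement C1 proteases C1ra, at -0.020 ± 0.179 (SE) (edgeR adjusted p = 0.951), and C1s1, at -0.060 ± 0.160 (SE) (edgeR adjusted p = 0.825), were not called. Masp1 changed by -1.26 ± 0.259 (SE) (edgeR adjusted p = 0.00810), Bdkrb1 by -1.30 ± 0.235 (SE) (edgeR adjusted p = 0.00441), Kng2 by -1.23 ± 0.320 (SE) (edgeR adjusted p = 0.0235) and C1rl by -0.41 ± 0.112 (SE) (edgeR adjusted p = 0.0283). Bdkrb1 encodes a receptor for kinins and Kng2 a kininogen. The lower count of this list was 2 without clodrosome C or encapsome B, and the higher count was 0 without any library but clodrosome B.

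Among 11 tested leukocyte serine proteases, 0 were higher and 3 lower, all of them mast cell proteases, and the median log2 fold change was -0.56. Mcpt4, a chymase, changed by -0.997 ± 0.127 (SE) (edgeR adjusted p = 7.55e-04), Cma1, another chymase, by -0.84 ± 0.118 (SE) (edgeR adjusted p = 0.00126) and the tryptase Tpsb2 by -0.67 ± 0.140 (SE) (edgeR adjusted p = 0.00852). Of the 5 mast cell markers, 3 were lower and 1 higher, with a median log2 fold change of -0.95. They summed to between 219 and 268 CPM with clodrosome and between 222 and 282 CPM with encapsome. Of 11 tested papain-like cathepsins and legumain, a list not limited to known serpin targets, 0 were higher and 8 lower, with a median of -0.88. Ctss changed by -2.18 ± 0.134 (SE) (edgeR adjusted p = 4.42e-05), Ctsz by -1.30 ± 0.124 (SE) (edgeR adjusted p = 1.90e-04), Ctsh by -0.88 ± 0.0772 (SE) (edgeR adjusted p = 1.35e-04) and Lgmn by -1.60 ± 0.173 (SE) (edgeR adjusted p = 3.24e-04). These are lysosomal proteases that macrophages express, and the macrophage marker sum was lower in the same libraries, whose part in these results was not tested.

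Of 20 tested epidermal serine proteases, 5 were higher and 0 lower, with a median log2 fold change of 0.27. Klk10 changed by 0.805 ± 0.110 (SE) (edgeR adjusted p = 0.00106), Klk13 by 0.60 ± 0.104 (SE) (edgeR adjusted p = 0.00344), Klk6 by 0.50 ± 0.0859 (SE) (edgeR adjusted p = 0.00360) and Klk8 by 0.37 ± 0.108 (SE) (edgeR adjusted p = 0.0358), all kallikreins. Klk7, the target of vaspin, had 2792, 3827 and 3183 CPM with clodrosome and 2885, 2937 and 3013 CPM with encapsome and was not called (edgeR adjusted p = 0.419). Without encapsome B or encapsome C, 3 genes of this list were higher. Protease inhibitors outside the serpin family went both ways, with 5 of 21 tested genes higher (8 without the low-count filter) and 7 lower, and a median of 0.084. Slpi, the secretory leukocyte protease inhibitor, rose (1.12 ± 0.0958 (SE), edgeR adjusted p = 1.27e-04), while Wfdc17 (-1.65 ± 0.1004 (SE), edgeR adjusted p = 4.42e-05), Timp2 (-1.02 ± 0.102 (SE), edgeR adjusted p = 2.34e-04) and the cystatin gene Stfa2 (-1.53 ± 0.168 (SE), edgeR adjusted p = 3.48e-04) fell.

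The acute phase and IL-6 family list had 4 of 17 genes higher and 1 lower (2 without encapsome A), with a median log2 fold change of 0.059. Lcn2, lipocalin 2, had 902, 1297 and 1004 CPM with clodrosome and 279.8, 334 and 355 CPM with encapsome (1.72 ± 0.147 (SE), edgeR adjusted p = 1.23e-04), and Saa3, an acute phase apolipoprotein, rose by 0.94 ± 0.129 (SE) (edgeR adjusted p = 0.00111). Osm, oncostatin M, rose by 0.547 ± 0.126 (SE) (edgeR adjusted p = 0.0136), and Il6ra changed by -0.86 ± 0.0780 (SE) (edgeR adjusted p = 1.57e-04). Of the Serpina3 genes, Serpina3f was called higher and Serpina3b, Serpina3j and Serpina3n lower. Serpina3b had entered the test through encapsome libraries alone, and the Serpina3n call was lost without encapsome A, encapsome B or encapsome C. Il6 (edgeR adjusted p = 0.745) and Socs3 (edgeR adjusted p = 0.846) were not called.

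**Figure D5:**
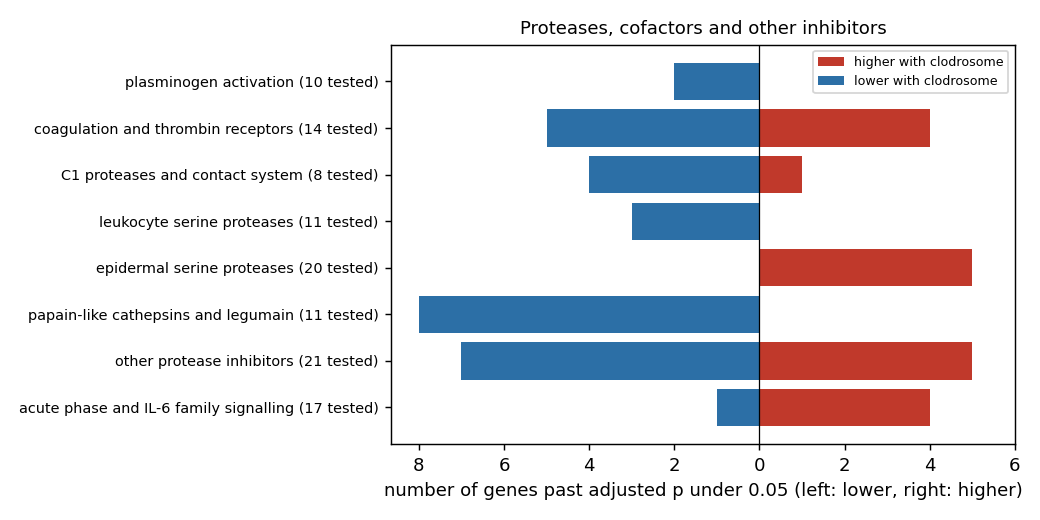
Number of genes past the threshold in 8 lists of proteases, cofactors, other inhibitors and acute phase genes, with genes lower with clodrosome to the left of 0 and higher genes to the right. Papain-like cathepsins and legumain lie to the left only, at 8, and epidermal serine proteases to the right only, at 5. Over all tested genes 9.41% were called higher and 13% lower.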

How the data were processed

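RNA of 3 DPCP+Codrosome and 3 DPCP+Encapsome skin libraries was analysed. The authors deposited raw counts for each gene, made by featureCounts 1.6.2 with Ensembl gene models of GRCm38, per the file headers. The submitters' processing notes also name Trimmomatic 0.36, HISAT2 2.2.1, StringTie 2.2.1 and DESeq2 1.34.0. The counting command sets no option for paired ends, strand or multiply mapped reads, so by the tool's defaults each read end is counted, strand is ignored, and reads matching several places or genes are left out. Between 63.6% and 69.7% of counts from 1 to 20 were even.

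Columns were matched to groups by name. Symbols were found for 99.5% of identifiers. Genes were tested with edgeR 4.0.16 in R 4.3.3 (quasi-likelihood, TMM, no covariate). The filterByExpr settings were 10 counts and a total of 15, which needs 3 libraries at or above 0.314 CPM. Benjamini-Hochberg adjustment ran over 17988 genes, with calls under 0.05. The standard error is the log2 fold change over the square root of F. The procedure was tested on simulated counts. The level that a count of 0 allows (6 counts, or 3 fragments with both ends counted) was between 0.0502 and 0.228 CPM, for counting error only. Alternatives were RLE scaling, no filter, DESeq2 1.42.0, halved counts, thinning of the largest library, leaving out each library, and, added after the data were seen, the ribosomal RNA side as a covariate. Members named are those called or with a mean of at least 20 CPM, and in each list up to 4 called genes with the smallest p. For 1 uncalled member, values are not reported here. Other genes and members were named after their values were seen. The members and lists were chosen with earlier results of these data known.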

Additional observations from a re-analysis of the deposited data

How the results depend on the processing

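Of the 13 called serpin genes, Serpina3f, Serpinb6b, Serpina3b, Serpina3j, Serpinb7, Serpinb6e and Serpina10 kept their call in every alternative in which they were tested, and the other 6 lost it without at least 1 library. Serpina3b, Serpinb6e and Serpina10 had passed the low-count filter through encapsome libraries alone. Most alternatives kept that filter, so for these genes an unchanged call adds little. The number of members called higher was 7 without the low-count filter, and from 2 (without encapsome A) to 5 with a library left out. The number called lower ran from 5 (without encapsome A or B) to 8. Over all genes, leaving out a library gave from 821 to 1964 higher and from 1656 to 2432 lower calls. No paired analysis was possible because the count columns carry no replicate number of the sample titles. The median over all genes moved by less than 0.1 on the log2 scale under each scaling. Without the low-count filter, plasminogen activation had 4 lower genes, epidermal proteases 9 higher, other inhibitors 8 higher and acute phase genes 2 lower, and DESeq2 gave 4 lower plasminogen genes. With a library left out, higher plasminogen genes ran from 0 to 1 and lower ones from 2 to 4, contact system genes from 0 to 1 higher and from 2 to 4 lower, epidermal proteases from 3 to 5 higher, and acute phase genes from 1 to 2 lower. The higher contact system count was 0 with the largest library thinned and 0 with the ribosomal RNA side as covariate. Values turned sign for 7 uncalled members, at 0.012 for Serpinb3b without encapsome B (from -0.235 over the libraries left out), -0.020 for Serping1 without clodrosome A (up to 0.285), and 0.086 without clodrosome A and 0.03 without encapsome A for Serpinb6c (from -0.157), and over all alternatives from -0.212 to 0.525 for Serpinb6d, -0.091 to 0.195 for Serpina3i, -0.042 to 0.557 for Serpina11 and -0.330 to 0.489 for Serpind1. The cause of these changes was not tested.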
